A study of Lactuca sativa with 32 samples.

Results

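Lettuce plants grown behind clear glass in a height-controlled experiment (HC control) were compared with plants grown behind clear glass in an experiment with controlled photosynthetically active radiation, or PAR (PC control). The samples were chosen by their titles, HC-Control and PC-Control, numbers 1 to 4 in each, which gave 8 of the 32 samples of the series. The plants are red oak leaf lettuce (Lactuca sativa), and the leaf messenger RNA of each was sequenced after poly-A selection. The other 24 samples grew in both experiments behind organic photovoltaic filters of 3 kinds, named PTB7-Th:IEICO-4F, FTAZ:PCBM and FTAZ:IT-M. All plants stood under ceramic metal halide and incandescent lamps, with automated irrigation, 16 to a box. Light intensity was adjusted in PC and not in HC, and the sources used here give no intensity in either. Harvests took place at 3 and 5 weeks, and the labels do not say from which of them the leaves came. Growth date and box are not given per plant, and their part in this comparison and that of light intensity cannot be told apart.

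Photosynthetically active radiation is the part of the spectrum that drives photosynthesis. As background, leaves that develop in brighter or dimmer light are known to differ in the balance between light harvesting and carbon fixation. They also differ in protective pigments, among them the anthocyanins that redden lettuce, and in leaf thickness. The gene identifiers of the files carry no product names, so no role is given for a gene below unless a symbol was at hand, and leaf marker genes could not be looked up.

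Total counts ranged from 47644398 to 48764530 over the 8 plants, so 3 counts, taken as the smallest level this depth can show, lie at 0.0615 to 0.063 CPM (counts per 1000000 counts of a plant). Such floors cover counting error only. Of the nonzero counts of at most 20 in these plants, 68.2% were even, and the read layout is not given in the sources used here. If both ends of a fragment were counted, which was not tested, 2 counts stand for 1 fragment, and the limits of 3 and 10 counts used here stand for fewer fragments. With counts divided by 2 and rounded, 7928 genes were called in place of 7890. Pearson correlations of log2 CPM lay between 0.9782 and 0.987 within the HC control, between 0.9821 and 0.9863 within the PC control, and between 0.953 and 0.9781 across the groups. The highest correlation across the experiments thus just missed the lowest within one. The biological coefficient of variation within a group, a measure of the spread between plants, was 0.144 in HC and 0.135 in PC.

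Most differences between the 2 sets of glass plants were small, and they went both ways in near equal number. The scaling between plants (TMM) centres the fold changes near 0, which favours such a balance. Genes were called at an adjusted p (Benjamini-Hochberg) under 0.05 in edgeR's quasi-likelihood test, which held for 7890 of 24483 genes, or 32.2%, with 16.1% in each direction. Among the 3953 genes higher in HC, 46.7% differed by less than 0.5 on the log2 scale, and the median was 0.53. Of the 3937 genes lower in HC, 51.8% differed by less than 0.5, and the median size was 0.49. A change of at least 2-fold was seen for 889 called genes higher and 746 lower in HC, together 6.68% of the genes tested. The values of the 4 HC and 4 PC plants did not overlap for 6387 of the called genes. Over all tested genes they did not overlap for 31.8%. In bulk leaf samples a lower level cannot be told apart from fewer cells of a type that uses the gene. The 4 samples of a group are labelled as separate plants.

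Genes called, changed at least 2-fold and without overlap between the plants numbered 1398, or 5.71% of the genes tested, with 781 higher (3.19%) and 617 lower (2.52%) in HC. HC plant 4 lay nearest to the PC plants more often than the other HC plants did. It was the HC plant with the lowest value in 54.8% of the 889 genes higher in HC by at least 2-fold, and the one with the highest value in 52.0% of the 746 lower genes. On the other side, PC plant 3 was nearest to HC in 37.9% of the higher genes and PC plant 4 in 48.9% of the lower genes. Without HC plant 4, 7807 genes were called and 1778 were called, at least 2-fold changed and without overlap.

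The largest rises among called genes with a mean of at least 1 CPM and no overlap began from PC means between 0.0778 and 1.91 CPM and reached HC means between 2.80 and 28.7 CPM. LOC111886104 (scaffold NW_019680648.1, 2128869 to 2130909, plus strand, on the Lsat_Salinas_v7 assembly) stood at 4.21, 2.22, 3.17 and 1.58 CPM in HC plants 1 to 4. In PC plants 1 to 4 it stood at 0, 0.0820, 0.188 and 0.0415 CPM, from 0, 4, 9 and 2 counts. The groups were far apart, and the log2 fold change was 5.14 (SE 0.74, edgeR adjusted p 9.38e-06), or 6.04 without PC plant 3. LOC111880112, listed as a long non-coding RNA in the RefSeq gene table, lies at 2766857 to 2770393 on NW_019672500.1 (plus strand). Its HC plants held 17.4, 10.3, 20.4 and 16.6 CPM, and its PC plants 0.164, 1.00, 0.667 and 1.16 CPM. The lowest HC plant was well above the highest PC plant, with a log2 fold change of 4.43 (SE 0.55).

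LOC111921604 (NW_019678143.1, 840985 to 841867, minus strand) rose from 0.745 ± 0.365 CPM in PC to 12.9 ± 6.44 CPM in HC (SD, n = 4 each). The HC plants ranged from 5.73 to 20.9 CPM and the PC plants from 0.370 to 1.25 CPM, and the log2 fold change was 4.11 (SE 0.64). LOC111899681 (NW_019673320.1, 5696293 to 5697066, plus strand), annotated with a single exon, held 44.9, 21.8, 38.5 and 9.61 CPM in HC plants 1 to 4. Its PC plants held 1.09, 1.27, 3.5 and 1.76 CPM. HC plant 4 was the lowest of its group by more than 2-fold. The log2 fold change was 3.92 (SE 0.62, edgeR adjusted p 2.86e-05).

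The largest falls at this level were of like size. LOC111902421 (NW_019673832.1, 2974394 to 2975685, minus strand) held 0.0417, 0.125, 0.105 and 0.208 CPM in HC plants 1 to 4 and 3.00, 4.57, 3.10 and 1.76 CPM in PC plants 1 to 4. Its HC plants were near the floor, at 2 to 10 counts, and the log2 fold change was −4.65 (SE 0.78, edgeR adjusted p 5.68e-05). LOC111878037 (NW_019678764.1, 2841322 to 2842610, plus strand) differed widely among PC plants, which held 22.6, 5.19, 16.7 and 2.22 CPM. The HC plants all lay under 1 CPM, between 0.376 and 0.987, and the log2 fold change was −4.09 (SE 1.07). LOC111914136 (NW_019676738.1, 1879582 to 1880480, minus strand) had its highest value, 4.95 CPM, in PC plant 1, against 0.373 to 1.54 CPM in the other PC plants. It fell to 0 to 0.252 CPM in HC, a log2 fold change of −4.0 (SE 0.85), which was −2.93 without PC plant 1 and −4.68 without HC plant 3. LOC111915181 (NW_019676862.1, 2332629 to 2335442, plus strand) held 24.9, 12.2, 9.17 and 8.98 CPM in PC and 0.104, 0.481, 0.756 and 3.06 CPM in HC. Here too HC plant 4 was nearest to PC, and the log2 fold change was −3.63 (SE 0.73), or −4.91 without that plant.

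**Figure D1:**
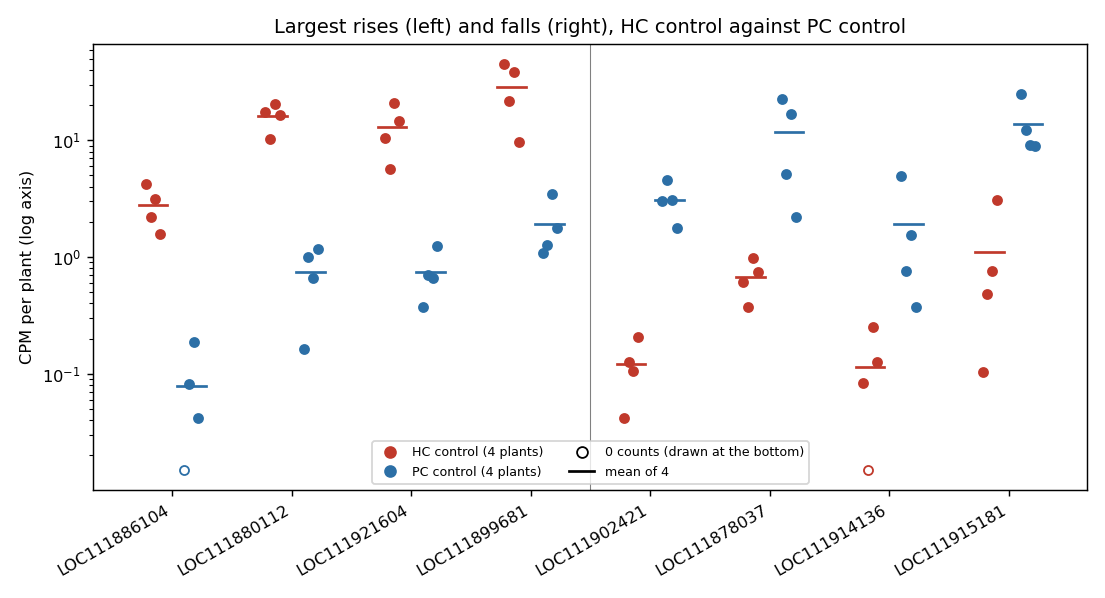
CPM of each plant (log axis) for the 4 largest rises and 4 largest falls among called genes with a mean of at least 1 CPM and no overlap between HC and PC plants. Points are plants, lines are means of 4 and open points are plants with 0 counts. The lack of overlap was a condition of the choice. LOC111886104 runs from 1.58 to 4.21 CPM in HC and stays at or under 0.188 CPM in PC.

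The lowest p-values belonged to genes with smaller changes and little spread between plants. LOC111897682 (NW_019683453.1, 997448 to 999356, minus strand) held 5.61, 6.25, 5.42 and 7.12 CPM in HC and 16.0, 17.7, 18.4 and 15.6 CPM in PC. Its log2 fold change was −1.46 (SE 0.11, edgeR adjusted p 4.9e-09). LOC111896712 (NW_019683239.1, 439869 to 441194, plus strand) fell from 72.1 ± 5.96 to 37.2 ± 1.46 CPM (SD, n = 4 each), a log2 fold change of −0.94 (SE 0.08). The HC plants of LOC111896712 lay within 35.4 to 38.9 CPM and its PC plants within 65.4 to 79.3 CPM. Among rises, LOC111878628 (NW_019678877.1, 792462 to 796418, plus strand) went from 21.7 ± 1.62 to 39.7 ± 1.34 CPM (SD, n = 4 each), a log2 fold change of 0.89 (SE 0.08). LOC111906636 (NW_019674641.1, 203235 to 206915, plus strand) went from 32.6 ± 1.45 CPM in PC to 118 ± 19.5 CPM in HC (SD, n = 4 each), a log2 fold change of 1.87 (SE 0.17). Its PC plants spanned 30.8 to 34.4 CPM.

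Calls were spread over all levels of reads, and their direction varied with level. Of the 4117 genes with a mean under 1 CPM, 15.4% were called, and 547 of those 633 calls were at least 2-fold. From 10 to 100 CPM 37.8% of 11374 genes were called, with 2153 higher and 2144 lower, and only 344 calls reached 2-fold. Between 100 and 1000 CPM falls outnumbered rises, with 469 genes lower (27.6%) and 270 higher (15.9%) of 1699. At 1000 CPM and over, 30 of 92 genes were higher (32.6%) and 16 lower (17.4%) in HC. Levels here are reads per gene, not per length.

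**Figure D2:**
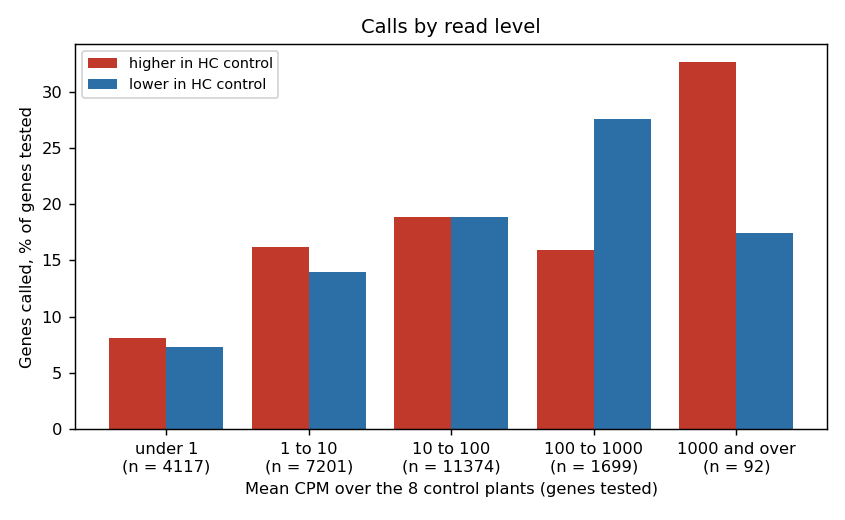
Share of tested genes called higher (red) or lower (blue) in the HC control, by mean CPM over the 8 control plants, with the number of genes tested under each bin. The bins from 100 to 1000 CPM and from 1000 CPM differ in their majority: 27.6% lower against 15.9% higher in the former, and 32.6% higher against 17.4% lower in the latter.

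**Figure D3:**
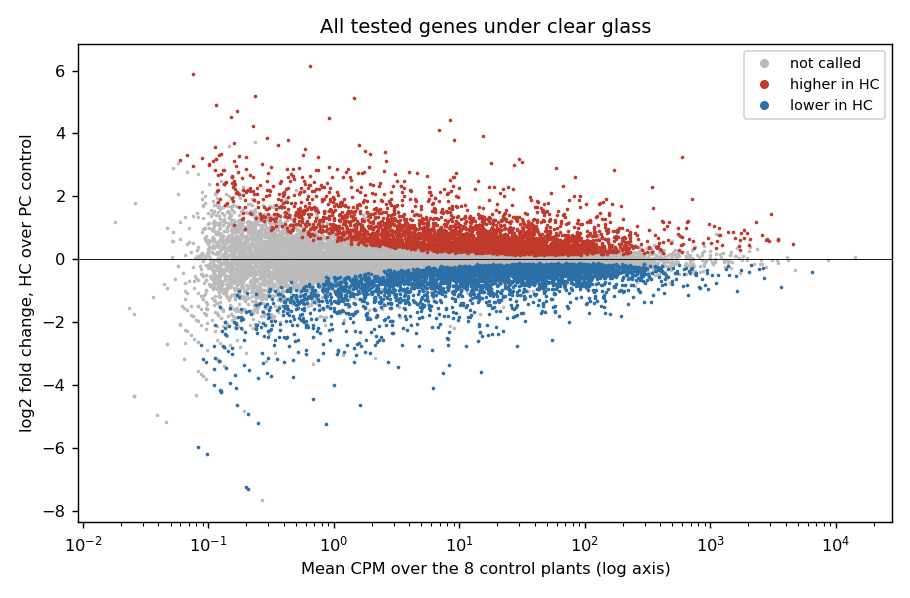
Log2 fold change of HC over PC control against mean CPM over the 8 plants (log axis) for the 24483 tested genes, with called genes in red (3953 higher in HC) and blue (3937 lower). The largest changes lie at low CPM, and LOC111908061 stands out on the right with a log2 fold change of 3.25.

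Among called genes with a mean of at least 100 CPM and no overlap, the 3 largest rises were larger than the 3 largest falls. LOC111908061 (NW_019675032.1, 20114 to 21058, plus strand), annotated with a single exon, held 1614, 1007, 1089 and 615 CPM in HC plants 1 to 4. In PC plants 1 to 4 it held 48.2, 77.1, 219 and 109 CPM. Plant 4 was the lowest in HC and plant 3 the highest in PC, and the log2 fold change was 3.25 (SE 0.49, edgeR adjusted p 1.72e-05). LOC111884267 (NW_019680221.1, 2074862 to 2077535, minus strand) rose from 42.7 ± 12.6 to 300.0 ± 89.6 CPM (SD, n = 4 each), a log2 fold change of 2.82 (SE 0.45). LOC111888053 (NW_019681068.1, 575876 to 576813, minus strand) held 1079, 383, 488 and 308 CPM in HC and 59.0, 93.5, 132 and 183 CPM in PC. HC plant 1 was over 2 times as high as any other plant, and the log2 fold change was 2.29 (SE 0.60).

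LOC111903698 (NW_019674103.1, 752847 to 755283, minus strand) held 403, 308, 265 and 233 CPM in PC and 27.4, 74.0, 68.6 and 172 CPM in HC plants 1 to 4. HC plant 4 again came nearest to PC, and the log2 fold change was −1.82 (SE 0.51, edgeR adjusted p 0.00692). LOC111913930 (NW_019676676.1, 176068 to 178815, minus strand) held 277, 225, 202 and 185 CPM in PC and 65.6, 85.4, 57.3 and 60.3 CPM in HC, a log2 fold change of −1.71 (SE 0.19). LOC111881938 fell from 246 ± 18.3 to 72.6 ± 14.9 CPM (SD, n = 4 each) and belongs to a run of neighbours described further on.

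On the CPM scale, a few abundant transcripts gained or lost more than 1000 CPM each. CPM is a share of the counts of a plant, so gains and losses cancel over all genes and are not amounts of RNA. Summed over genes called higher, the mean CPM was 80264 greater in HC than in PC, and the top 10 genes held 19% of that sum. Over genes called lower the sum was −73945 CPM, with 13.4% in the top 10. The genes with most CPM gained and lost were singled out after their values were seen. LOC111888054 (NW_019681068.1, 567062 to 568000, minus strand) gained most, from 1632 ± 566 to 4415 ± 465 CPM (SD, n = 4 each), a log2 fold change of 1.44 (SE 0.26). It lies 7875 bp from LOC111888053 on the same strand, and both are annotated with a single exon and nearly the same exonic length, 939 and 938 bp. If they are near-identical copies, reads that map to both would be uncounted, as counting had no option for multi-mapping reads. LOC111878096 rose from 1423 ± 445 to 3188 ± 270 CPM and LOC111908249 from 2727 ± 635 to 4238 ± 491 CPM (SD, n = 4 each). The losses were led by LOC111884003, from 4736 ± 828 to 2527 ± 449 CPM, and LOC111906083, from 7444 ± 339 to 5536 ± 693 CPM (SD, n = 4 each). LOC111890922 followed, with 3258 ± 155 CPM in PC and 2128 ± 147 CPM in HC (SD, n = 4 each). Over the filters LOC111884003 and LOC111906083 had log2 fold changes of −0.22 and −0.11 and were not called (edgeR adjusted p 0.295 and 0.242), and neither was their difference from glass.

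The transcript with most reads, LOC111917913 (NW_019677377.1, 3134075 to 3135920, minus strand), was not called. It stood at 16245, 14533, 13734 and 13983 CPM in HC plants 1 to 4 and at 11394, 13357, 16288 and 15252 CPM in PC plants 1 to 4. The groups overlapped, and the log2 fold change was 0.06 (SE 0.16, edgeR adjusted p 0.791). Over the filters LOC111917913 was called higher in HC, with a log2 fold change of 0.46 (SE 0.09, edgeR adjusted p 0.00017). Its difference between glass and filters was not called (edgeR adjusted p 0.364).

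Broad measures of the libraries overlapped between the groups. The 10 genes with most reads took 5.74% ± 0.222 of the counts in HC and 5.79% ± 0.402 in PC, and the top 100 genes 21.9% ± 0.711 and 20.3% ± 1.45 (SD, n = 4 each). For the top 100 the exact permutation p was 0.114 (two-sided), or 0.8 after Benjamini-Hochberg adjustment over 7 such measures, and 4 against 4 plants cannot give less than 0.0286. Plants in HC had 26389 to 26526 genes with at least 1 read and plants in PC 26241 to 26530.

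Genes that were on in one experiment and off in the other were rare, and all were low. With at most 3 counts in each plant for off and at least 10 in each plant for on, 5 genes were on in the HC control only and 4 in the PC control only. LOC111919558 (NW_019677815.1, 2108588 to 2110299, plus strand) had 21, 16, 23 and 23 counts in HC plants 1 to 4 and 0, 2, 2 and 0 in PC plants 1 to 4. LOC111888345, a long non-coding RNA (NW_019681106.1, 3284438 to 3291889, minus strand), had 19, 21, 15 and 50 counts in HC and 3, 2, 0 and 2 in PC. LOC111896112 (NW_019683146.1, 77027 to 78131, minus strand) had 14, 16, 39 and 20 counts in HC and 2, 0, 0 and 0 in PC. The highest HC plant of these 3 genes held 1.04 CPM, and the edgeR adjusted p-values were 0.00113, 0.00115 and 0.000109. The 3 genes named in each direction were taken from called genes. The on or off rule used the same counts as the test, so the p-values of such genes are not separate support. The other HC genes, LOC111900444 and LOC111905653, had 10 to 23 counts in HC plants and were called as well.

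In the opposite direction, LOC111919126 (NW_019677711.1, 2092170 to 2092782, minus strand) had 34, 22, 26 and 12 counts in PC plants 1 to 4 and 0, 0, 2 and 0 in HC plants 1 to 4. LOC111906207 (NW_019674545.1, 660673 to 662291, plus strand) had 22, 45, 12 and 12 counts in PC and 0, 2, 2 and 2 in HC. LOC111896867 (NW_019683257.1, 866555 to 868764, plus strand) had 18, 12, 20 and 11 counts in PC and 0, 3, 0 and 0 in HC. The fourth gene, LOC111911881, was the only one of the 9 not called (edgeR adjusted p 0.101). LOC111919126 had an edgeR adjusted p of 0.0256, which rose to 0.0537 to 0.0658 without PC plant 1 or without HC plant 1, 2 or 4. With counts divided by 2 it was 0.0593 for LOC111919126, and LOC111896867 was not tested. In the main test LOC111906207 and LOC111896867 had edgeR adjusted p-values of 0.00153 and 0.000611. With 0 counts required for off, or 30 for on, no gene met the rule in either direction. The 5 became 12 without HC plant 4 and 8 without PC plant 3, and the 4 became 8 without HC plant 1 or HC plant 3 and 9 without PC plant 4.

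Many of the largest fitted changes lay close to the detection floor. Of 44 called genes with a fitted rise of at least 8-fold, 18 had at most 3 counts in every PC plant and 9 had at least 10 counts in every PC plant. Of 49 with a fitted fall of that size, 22 had at most 3 counts in every HC plant and 6 at least 10. The median of the mean CPM in the high group was 0.511 for the rises and 0.468 for the falls. Only 1 of these rises and 4 of these falls had 0 counts in all plants of the low group.

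Few of the identifiers carry a meaning in the files or the gene table. Through its synonym GS(1), LOC111883376 (NW_019680027.1, 1795890 to 1798892, minus strand) is a cytosolic glutamine synthetase, an enzyme that assimilates ammonium into glutamine. It held 280, 283, 305 and 368 CPM in HC plants 1 to 4 and 514, 495, 419 and 435 CPM in PC plants 1 to 4. It was lower in every HC plant than in any PC plant, with a log2 fold change of −0.58 (SE 0.08, edgeR adjusted p 1.11e-05). LOC111889525 (NW_019681480.1, 1112431 to 1115236, plus strand), with the synonyms TIM and TPI, is a triosephosphate isomerase, which interconverts the triose phosphates of glycolysis and the Calvin cycle. It held 366 ± 45.1 CPM in HC and 445 ± 41.6 CPM in PC (SD, n = 4 each), and the plants overlapped, as HC plant 4 at 427 CPM exceeded PC plant 1 at 396 CPM. The log2 fold change was −0.27 (SE 0.10, edgeR adjusted p 0.0441). Both genes were singled out for their synonyms, after their values were seen.

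Of the 911 identifiers with a symbol, which name transfer RNAs and plastid ribosomal and transfer RNAs, 13 passed the filter on low counts and 0 were called by edgeR, with 0 at an unadjusted p under 0.05. DESeq2's Wald test called 0 of them, and their log2 fold changes lay between −0.51 and 0.41. Plastid ribosomal and transfer RNA genes together took 34.0, 52.6, 39.3 and 45.9 CPM in HC and 34.1, 20.96, 70.2 and 38.4 CPM in PC. The highest and the lowest plant were both PC plants.

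Calls were also counted by gene type, as the RefSeq gene table lists it, at like levels of reads. Between 1 and 10 CPM, 21.1% of 859 long non-coding genes were called against 32.5% of 5955 protein-coding genes. Between 10 and 100 CPM the shares were 29.3% of 331 and 38.1% of 10940. Over all levels 145 long non-coding genes were higher and 185 lower in HC, while 3734 protein-coding genes were higher and 3671 lower. These shares are descriptions, with no test of their difference. Of 122 small nucleolar RNA genes, 10 were higher (8.2%) and 3 lower (2.46%), against 16.1% of all tested genes in each direction. Their levels were low, with 89 of the 122 at a mean under 1 CPM. At that level 6.74% of them were higher and 3.37% lower, against 8.09% and 7.29% of all tested genes. The median log2 fold change over all 122 was 0.23.

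The median exonic length was 1824 bp for genes higher in HC, 1494 bp for genes lower in HC and 1597 bp for all tested genes. With genes in 5 classes of equal number by length, 21.1% of those of 2435 to 16570 bp were higher and 9.93% lower. Of those of 68 to 987 bp, 11% were higher and 16.4% lower. The median log2 fold change was −0.04 in the shortest class and 0.08 in the longest.

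Plant by plant, this length trend was not separated from the spread within groups. The slope of log2 CPM, relative to each gene's mean, per log2 unit of exonic length was 0.0473, 0.0552, −0.00639 and −0.0310 in HC plants 1 to 4. It was 0.0346, −0.00896, −0.0755 and −0.0154 in PC plants 1 to 4. The groups overlapped, and the means differed by 0.0326 (HC minus PC, two-sided exact permutation p 0.343). With an offset that removes each plant's length trend, 8108 genes were called, and 7337 of these were among the 7890, in the same direction.

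Neighbours on a scaffold were compared next, as a description with no test. When a gene was higher in HC, its next tested neighbour was also higher in 19.3% of 3607 cases, where 16.0% of all next neighbours were. For genes lower in HC the share was 19.5% of 3596 cases, against 16.1% of all next neighbours. The next gene went the other way in 14.7% and 14.5% of cases. Among neighbours that do not overlap and lie more than 2 kb apart, the shares were 19.8% and 19.5%, against 16.5% and 16.3%. For head-to-head genes at most 2 kb apart, the next gene was also higher in 9 of 42 cases (21.4%, against 15.6% of all next genes in such pairs). After a lower gene it was also lower in 9 of 49 (18.4%, against 14.5%). Tail-to-tail rises at that distance differed, with 14.8% the same way, against 15.5%, and 19.6% the other way. Tail-to-tail falls had 20.8%, against 17.9%, and 20.3%. Over all non-overlapping pairs at most 2 kb apart, rises had 16.0% the same way, against 13.9%, and 16.7% the other way. Falls had 20.3%, against 15.9%, and 13.9%.

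Longer runs of neighbours were present in both directions. Runs of at least 3 tested neighbours called the same way numbered 101 for rises, with 8.47% of the genes called higher, and 118 for falls, with 10.1% of the genes called lower. With so many genes called, some such runs arise from independent neighbours too. The share this would give was not worked out, so these shares do not show an excess of runs. On the 92 scaffolds with at least 50 tested genes, 17.8% to 45.3% of genes were called, with a median of 32.7%. NW_019672258.1 had the largest share of rises, 29 of 93 genes, and NW_019680565.1 the largest share of falls, 15 of 51. Those shares were 31.2% and 29.4%, against 16.1% of all genes in each direction.

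The longest run of rises held 7 tested genes on NW_019672086.1, from 182061 to 347029. All 7 are annotated with a single exon, and 6 lie on the minus strand with exonic lengths of 486 to 597 bp. LOC111899749 stood highest in reads among these 6, at 17.6, 21.01, 28.2 and 21.4 CPM in HC plants 1 to 4 and 7.81, 9.86, 8.23 and 9.29 CPM in PC plants 1 to 4. LOC111899740 was lowest, at 1.55 ± 0.298 CPM in HC and 0.480 ± 0.0853 CPM in PC (SD, n = 4 each), and had the largest log2 fold change of the run, 1.70 (SE 0.36). The others on that strand, LOC111899731, LOC111899768, LOC111899761 and LOC111899776, had log2 fold changes of 1.42, 1.52, 1.33 and 1.37. LOC111899722, on the plus strand and 943 bp long, had the smallest, 0.81 (SE 0.21). In HC, plant 3 was the highest for each of the 7 genes. None of them overlaps another gene, and 2 further annotated genes in the span had too few counts to be tested. Whether these genes are near-identical copies, with shared reads left uncounted, could not be checked without sequence.

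The longest run of falls also held 7 tested genes, on NW_019679663.1 from 493537 to 877896, all on the plus strand. Of these, 6 are annotated with a single exon and are 669 to 723 bp long. LOC111881938 (745769 to 746439) carried most reads, with 249, 263, 251 and 220 CPM in PC plants 1 to 4 and 84.4, 83.8, 52.7 and 69.7 CPM in HC plants 1 to 4. HC plant 3 was the lowest of its group, and the log2 fold change was −1.74 (SE 0.26, edgeR adjusted p 1.48e-05). LOC111881935 held 89.0 ± 8.5 CPM in PC and 27.8 ± 5.24 CPM in HC, and LOC111881937 held 89.1 ± 10.3 and 27.5 ± 4.87 CPM (SD, n = 4 each). LOC111881939 held 85.7, 101, 115 and 90.01 CPM in PC and 34.2, 28.9, 20.3 and 27.1 CPM in HC. HC plant 3 was the lowest in each of these as well. In that order their log2 fold changes were −1.66, −1.68 and −1.81. As for the run of rises, loss of reads shared among copies could not be checked.

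The remaining genes of that run were lower in reads, and each lost its call when a certain plant was left out. LOC111881934 had a log2 fold change of −1.86 (SE 0.55) and LOC111881933 one of −1.36 (SE 0.45), with edgeR adjusted p-values of 0.0101 and 0.0202. In both, PC plant 3 was the highest, at 14.7 and 16.7 CPM. Without that plant the log2 fold changes were −1.27 and −0.99 and the edgeR adjusted p rose to 0.0818 and 0.107, and for LOC111881933 it was also 0.075 without HC plant 3 and 0.0622 without HC plant 4. LOC111881954, the only gene of the run with more than 1 exon, had a log2 fold change of −1.14 (SE 0.35) from 0.686 ± 0.103 CPM in PC and 0.308 ± 0.105 CPM in HC (SD, n = 4 each), and an edgeR adjusted p of 0.0508 without HC plant 2. A further 7 annotated genes within the span had too few counts to be tested, so the run is one of tested genes. Over the filters LOC111881934 and LOC111881954 were not called (edgeR adjusted p 0.127 and 0.0594).

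**Figure D4:**
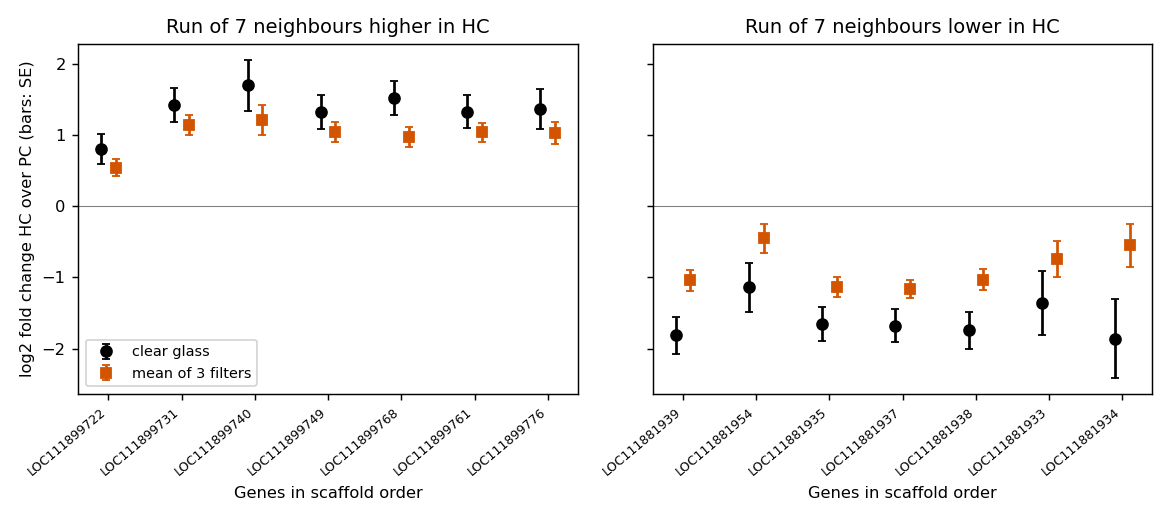
Log2 fold change of HC over PC (bars show the SE) for the genes of the longest run of rises and the longest run of falls, in their order on the scaffold, for clear glass (black circles) and for the mean over the 3 filters (orange squares). In glass the rises span 0.81 to 1.70 and the falls −1.86 to −1.14. The means over the filters lie on the same side of 0, with 7 of the 7 rises and 5 of the 7 falls called there. Under FTAZ:IT-M alone the 7 rises had log2 fold changes of 0.16 to 0.49, and none was called (edgeR adjusted p 0.124 to 0.624). In the run of falls, LOC111881954 had 0.21 under PTB7-Th:IEICO-4F, the other sign, and was not called there (edgeR adjusted p 0.663).

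Whether the difference between the experiments was particular to clear glass was asked with the 24 filter samples. Their values do not enter the glass fold changes, but they share the model, and with it the filter on low counts and the estimate of spread. A model of only the 8 control plants called 8015 genes. Over the mean of the 3 filters, HC differed from PC for 12669 genes, or 51.7% by the same edgeR test, from 24 plants rather than 8. Of the 3953 genes higher in HC under glass, 3189 (80.7%) were called higher under the filters too, which is 49.8% of the 6406 genes higher there, and 28 were called lower. Of the 3937 genes lower under glass, 3231 (82.1%) were called lower under the filters, 51.6% of the 6263 lower there, and 9 were called higher. Any gene was called higher over the filters in 26.2% of cases and lower in 25.6%. The median log2 fold change of the genes called higher under glass was 0.53 under glass and 0.37 under the filters, and of those called lower −0.49 and −0.33. The genes were chosen on their glass values, which favours larger values there. The filter samples carry the same link of experiment, growth date and intensity, which they do not separate.

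Each filter alone was compared with glass as well, where 35.0% of genes were called under PTB7-Th:IEICO-4F, 35.1% under FTAZ:PCBM and 28.7% under FTAZ:IT-M. Under PTB7-Th:IEICO-4F, 63.9% of the genes higher under glass were called higher and 56.2% of the lower ones lower. Of all tested genes, 18.8% were called higher and 16.2% lower there. For FTAZ:PCBM the shares were 50.9% and 53.4%, against 17.3% and 17.8% of all tested genes. For FTAZ:IT-M they were 45.7% and 46.8%, against 14.6% and 14.0%. Log2 fold changes under glass and under the filters correlated across the 24483 genes with r = 0.769 for the mean, 0.716 for PTB7-Th:IEICO-4F, 0.646 for FTAZ:PCBM and 0.569 for FTAZ:IT-M. These correlations are across genes of plants that shared lanes and experiments. Of the 1398 genes changed at least 2-fold without overlap under glass, 702 of 781 rises and 550 of 617 falls were called the same way over the filters. Under each of the 3 filters, 281 and 195 were called so. The share of all tested genes called the same way under each of the 3 was not worked out, so these 2 counts have no background beside them.

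All 18 genes named for size, level or lowest p in the glass comparison were called the same way over the filters. Among all tested genes 26.2% were called higher there and 25.6% lower. Each of the 18 kept its sign under every filter, but not all were called under each. LOC111878037, LOC111914136 and LOC111888053 were not called under FTAZ:IT-M (edgeR adjusted p 0.362, 0.742 and 0.485). Under FTAZ:PCBM, LOC111886104 and LOC111914136 were not called (edgeR adjusted p 0.425 and 0.055). LOC111908061 had log2 fold changes of 2.65 under FTAZ:IT-M, 3.19 under FTAZ:PCBM and 4.18 under PTB7-Th:IEICO-4F, against 3.25 under glass. LOC111886104 varied more, with 6.48, 0.56 and 2.50 against 5.14. In a PC filter plant it reached 4.64 CPM, above the 4.21 CPM of its highest HC control plant. LOC111913930 went from −2.13 under FTAZ:IT-M to −0.64 under PTB7-Th:IEICO-4F, with −1.71 under glass. LOC111883376, the glutamine synthetase, was lower in HC under each filter (−0.29, −0.43 and −0.42). The triosephosphate isomerase gene LOC111889525 had a mean log2 fold change of −0.02 (SE 0.06) over the filters, and its difference from glass was not called (edgeR adjusted p 0.368).

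Of the 9 genes on in only 1 of the controls, 7 were called the same way over the filters, and LOC111919558 and LOC111888345 were not called there. LOC111896112 stayed at or under 0.0828 CPM in the 12 PC filter plants and ranged from 0.0415 to 0.417 CPM in the 12 HC filter plants. LOC111919558 reached 0.373 CPM in a PC filter plant and was at 0 in an HC filter plant. LOC111919126 reached 14.5 CPM in a PC filter plant, far above the 0.698 CPM of the highest PC control plant. An HC filter plant reached 1.10 CPM for this gene, which is also above every PC control plant. Under FTAZ:PCBM alone its log2 fold change was −1.14 and not called (edgeR adjusted p 0.415).

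The direct test of a difference between glass and the mean of the filters called 113 genes, or 0.462%, with the signed log2 fold change of HC over PC above that of the filters in glass for 66 (0.27%) and below it for 47 (0.192%). Of the 66, 42 were higher in HC under glass and 24 were not called there, all 24 being called lower in HC over the filters. Of the 47, 24 were lower in HC under glass and 23 were not called there, all 23 being called higher over the filters. Of the 42, 17 were called lower in HC over the filters. The genes with the lowest p were singled out after their values were seen. LOC111920763 (NW_019678046.1, 625890 to 628043, minus strand) held 48.4 ± 9.11 CPM in the HC control and 41.3 ± 2.27 CPM in the PC control (SD, n = 4 each). Behind filters its median was 41.0 CPM in HC and 65.3 CPM in PC, so that PC control plants lay below PC filter plants, whose lowest value was 48.6 CPM. The log2 fold changes differed by 0.84 (edgeR adjusted p 0.00279). LOC111880715 differed by 0.70, with 23.9 ± 1.47 CPM in the PC control (SD, n = 4) and a median of 38.7 CPM in PC filter plants. Its PC filter plants reached down to 21.1 CPM, and its mean in PC was 23.5 CPM under FTAZ:IT-M, 40.6 CPM under FTAZ:PCBM and 42.2 CPM under PTB7-Th:IEICO-4F.

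In the other direction, LOC111895551 (NW_019683044.1, 492588 to 494583, plus strand) held 34.8 ± 2.73 CPM in the PC control and 30.6 ± 2.37 CPM in the HC control (SD, n = 4 each). Behind filters its median rose from 24.7 CPM in PC to 35.5 CPM in HC, and the difference was −0.82. LOC111902464 differed by −0.65, with 56.0 ± 3.95 CPM in the PC control (SD, n = 4) and 35.6 to 52.3 CPM in the PC filter plants, whose median was 41.4 CPM. In LOC111895551 and LOC111902464 every PC control plant lay above the PC filter median, and in the former pair every one lay below it. The count of 113 moved with single plants and was 23 without HC plant 3, 44 without PC plant 2, 45 without PC plant 1, 59 without PC plant 3 and 71 without PC plant 4.

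**Figure D5:**
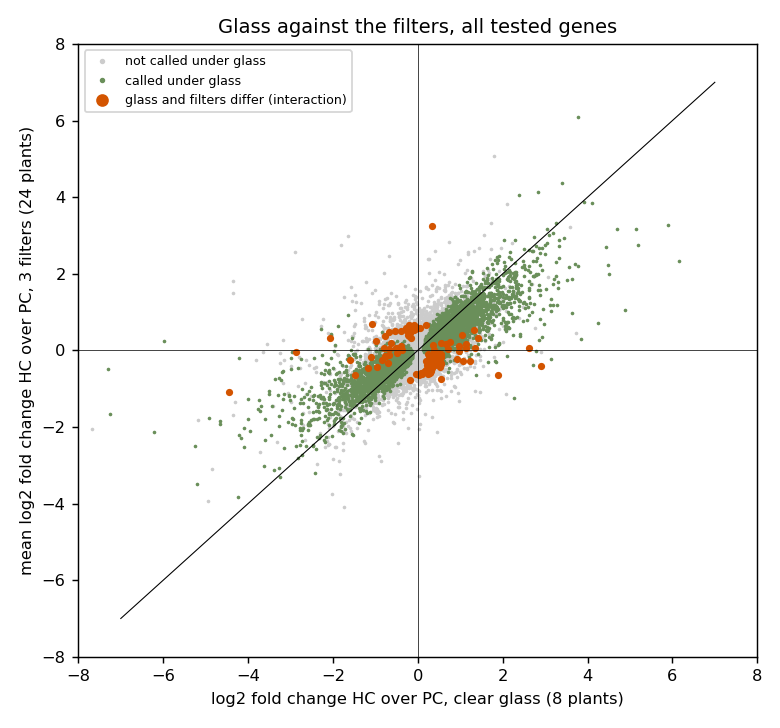
Log2 fold change of HC over PC under clear glass (8 plants) against its mean over the 3 filters (24 plants) for the 24483 tested genes, with the line of equality. Genes called under glass are green, and the 113 genes for which glass and filters differed are orange; over all genes r = 0.769, and most green points lie in the quadrants where both changes have the same sign.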

How the data were processed

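Leaf poly-A RNA of 8 clear glass plants was compared, with 24 filter plants in the same model. Raw read counts for each gene were deposited by the authors, from featureCounts 2.0.1 on exons of the RefSeq annotation of Lsat_Salinas_v7, per the file headers, with no option for strand, multi-mapping reads or pairs. FastQC, HISAT2 and DESeq2 are named, with no role, in the submitters' processing notes. Reads shared between near-identical genes may thus be lost, and strands are not separated.

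Groups came from the sample titles, which label 4 individual plants each. A filter on low counts (filterByExpr on the groups, at least 10 counts and 15 in total) left 24483 of 43717 genes. After TMM scaling, genes were tested with edgeR 4.0.16 (quasi-likelihood F-test, limma 3.58.1, R 4.3.3) in 1 model of 8 group means without covariates, with p-values adjusted by Benjamini-Hochberg over all tested genes. The contrasts were HC control minus PC control, the mean of HC minus PC over the 3 filters, and their difference. CPM values are counts per total counts, without TMM. Log2 CPM used a prior count of 2. Single values per plant were compared by exact permutation over 70 splits. Python 3.11.15 with scipy 1.17.1 and pandas 2.3.3 made the tables. The test was checked on simulated data.

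Named genes, other than the gene with most reads, which was named whether called or not, are called genes without overlap between groups: the 4 largest rises and falls from 1 CPM, the 3 from 100 CPM, the 3 clearest on or off genes and the 2 lowest p in each direction, the longest run of neighbours each way, and called genes with a symbol. The comparison and lists were chosen with earlier results of these data known. Biotypes and synonyms came from a RefSeq table of Lsat_Salinas_v11, which matched 37879 identifiers, and its coordinates were not used. Promoter words and lists by product name were not examined, for want of sequences and product names here. The alternatives were DESeq2's size factors, DESeq2 1.42.0, no filter, a mean CPM of 5, only the control plants, the replicate number as a block, a length offset, a 2-fold minimum, each control plant left out, and, added after seeing the data, counts divided by 2, tried because most low counts are even.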

Additional observations from a re-analysis of the deposited data

Results flagged for a closer look

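For 6 of the 90 sets of 4 plants looked at, 1 plant was flagged as far from the rest. A rate of 1 in 20 would give 4.5. That rate does not apply to the off groups of on or off genes, which were chosen for at most 3 counts in every plant. In those, a difference of 2 or 3 counts makes up the whole range. As a share of the whole range of the 4 plants, the gap to the nearest plant was 1.0 for LOC111896112 in the PC control, for LOC111919126 in the HC control and for LOC111896867 in the HC control, where only 1 plant had any reads. It was 0.991 for LOC111906207 in the HC control, where plant 1 had 0 counts and the others 2 each. It was 0.91 for LOC111899761 in the HC control, where plant 3 held 17.5 CPM, and 0.884 for LOC111881935 in the PC control, where plant 4 held 76.3 CPM.

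The change between the experiments differed between glass and the mean of the filters for 113 genes by edgeR's test of the difference. Among the genes described, these were LOC111920763 (0.84 on the log2 scale), LOC111880715 (0.70), LOC111895551 (−0.82) and LOC111902464 (−0.65).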

How the results depend on the processing

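Of 595 recomputed values for the 38 named genes under 16 alternatives, 584 kept their direction and their side of the threshold and 10, in 4 genes, lost their call. The other was LOC111917913, not called, at −0.02 without PC plant 1 and up to 0.17 without PC plant 3. LOC111919126 lost its call in 5 alternatives. A gene has no value where it did not pass the filter of an alternative, as for the named on or off genes at a mean CPM of at least 5. Of the 7890 genes, 0 were called in the opposite direction by any of the 16. The count of 7890 lay between 6406 and 7807 with a plant left out, and was 8269 with DESeq2's Wald test and 8015 with only the control plants. With the replicate number as a block it was 7870. Same-numbered plants correlated between −0.0893 and 0.0679 in their deviations, and 2 of the 4 HC plants correlated best with the PC plant of their own number. With only 4 such pairs, these values cannot tell whether the numbers pair the plants.

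A 2-fold minimum lowered the counts to 1635 called, 889 higher and 746 lower under glass, and 1414 over the filters. A mean CPM of at least 5 gave 552 genes with groups apart at least 2-fold in place of 1398, with fewer low genes tested. DESeq2's Wald test gave 328 genes in place of 113 for the difference of glass and filters, and leaving out a control plant gave 23 to 125; the cause was not tested. On or off genes numbered 0 with 0 counts for off and 0 with at least 30 for on, in both directions. With a plant left out they numbered 5 to 12 for HC and 4 to 9 for PC. At this depth such genes lie near the floor.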
